A study of Mus musculus with 8 samples.

Results

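Of the 524614 regions listed for BRG1 in Tβ4-primed, injured mouse hearts, 37616 lay in gene deserts. A region was counted when it was on chromosomes 1 to 19, was at most 100 kb long and had no annotated gene of any type (protein-coding, non-coding or pseudogene, GENCODE annotation of the mouse build mm9) within 200 kb on either side. These 37616 regions were 7.17% of the whole list and 7.64% of the 492131 autosomal regions of at most 100 kb. The choice used positions and the length limit, which removed 4 autosomal regions, and no measure of the share of bases covered or of sequence. Since the whole region had to clear 200 kb on both sides, a long region was slightly less likely to be counted near a desert's edge. A stretch in which every base is at least 200 kb from the nearest gene is called a desert below.

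The study asked where BRG1 binds in hearts stimulated with Tβ4 (thymosin β4, an actin-binding peptide) before myocardial infarction (MI). Adult C57BL/6 mice, 10 to 12 weeks old per the labels (the study's methods name C57BL/6J and give an older range), received intraperitoneal Tβ4 at 12 mg per kg or PBS daily for 1 week. Infarction was then induced by tying off the left anterior descending (LAD) artery, and the mice were injected again on day 0 and day 2 and had their hearts taken on day 4. Chromatin of whole hearts was immunoprecipitated with an antibody against BRG1 or kept as input, with 2 libraries for each of the 4 groups (PBS or Tβ4, ChIP or input), 8 in all. The single list analysed here is labelled as BRG1 in Tβ4-primed hearts against input, and has no score, read count or separation of the duplicates. Whether its regions were called as enriched over input or by a comparison of conditions could not be settled, since the methods and the name of the list point to different functions of the caller. Depth and replicate error are therefore unknown, no comparison with PBS-primed hearts was made, and every comparison below is a description of 1 list with no test. Whole hearts hold many cell types, and the list does not say which cells carried BRG1 at a given region.

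BRG1, encoded by Smarca4, is a motor protein of SWI/SNF chromatin remodelling complexes, which move or remove the histone cores around which DNA is wound and so make DNA accessible to transcription factors. Gene deserts are long gene-free stretches of vertebrate chromosomes. Some flank genes that control development and hold enhancers acting over long distances, and others can be lost in mice without an evident defect. Mouse desert sequence is poor in G and C and rich in repeats, and reads from repeats are often dropped because they cannot be placed.

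Sequences of regions that the values below turn on were read from mm9 on the forward strand, 5′ to 3′. The first set holds the central 300 bases of long regions in deserts that stand out for their share of covered bases or for their density of regions, and those of the longest region with every base sequenced. Capitals mark matches, on either strand, to the letters TGANTCA of AP-1 sites, TTGCNNAA of C/EBP factors, AGATAA of the GATA family, GGAATG of TEAD proteins, TAAAAATA of MEF2 factors, AGGGGGC from the core of CTCF sites, or TTGGCA, which is 1 arm of an NFI site. The central 32 bases of each of these 5 regions occur at 1 place in mm9, and the rest of the runs was not looked up.
Slc16a7 to Lrig3 desert, chr10:125177670-125177969: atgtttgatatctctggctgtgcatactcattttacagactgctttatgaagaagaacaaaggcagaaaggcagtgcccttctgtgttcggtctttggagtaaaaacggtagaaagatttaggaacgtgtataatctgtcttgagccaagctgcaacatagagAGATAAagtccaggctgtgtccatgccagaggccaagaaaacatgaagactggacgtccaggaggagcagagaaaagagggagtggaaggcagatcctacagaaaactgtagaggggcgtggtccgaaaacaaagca
Irx2 to Irx4 desert, chr13:73148130-73148429: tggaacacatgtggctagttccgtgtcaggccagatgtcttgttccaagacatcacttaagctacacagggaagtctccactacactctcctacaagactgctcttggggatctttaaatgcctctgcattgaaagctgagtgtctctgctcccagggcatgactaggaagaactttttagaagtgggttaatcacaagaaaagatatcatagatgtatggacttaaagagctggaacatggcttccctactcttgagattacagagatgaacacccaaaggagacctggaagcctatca
Cd83 to Jarid2 desert, chr13:44429070-44429369: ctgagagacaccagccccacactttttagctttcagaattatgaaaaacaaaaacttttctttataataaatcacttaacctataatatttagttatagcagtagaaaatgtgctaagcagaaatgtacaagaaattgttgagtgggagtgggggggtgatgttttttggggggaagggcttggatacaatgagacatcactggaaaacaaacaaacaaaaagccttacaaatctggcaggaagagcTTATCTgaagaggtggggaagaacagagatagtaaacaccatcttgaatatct
Cited2 desert, chr10:17170800-17171099: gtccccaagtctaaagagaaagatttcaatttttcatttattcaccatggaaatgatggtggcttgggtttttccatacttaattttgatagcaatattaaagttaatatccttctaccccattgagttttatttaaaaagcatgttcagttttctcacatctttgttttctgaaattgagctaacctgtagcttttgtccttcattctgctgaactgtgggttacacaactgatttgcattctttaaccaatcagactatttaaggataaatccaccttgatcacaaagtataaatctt
Agbl1 to Ntrk3 desert, chr7:84766770-84767069: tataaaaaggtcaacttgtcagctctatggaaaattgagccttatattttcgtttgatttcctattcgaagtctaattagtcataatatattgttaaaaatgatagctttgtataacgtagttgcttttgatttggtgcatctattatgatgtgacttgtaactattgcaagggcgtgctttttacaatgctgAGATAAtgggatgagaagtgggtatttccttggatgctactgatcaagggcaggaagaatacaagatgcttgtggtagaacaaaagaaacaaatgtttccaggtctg
Matches to AGATAA or its reverse complement TTATCT were the only capitals in these runs. The Irx2 to Irx4 and Cited2 runs held no match to any of the 7 motifs.

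The second set shows the regions that lay farthest from any gene, again with motif letters in capitals. All lay between Olfm4, which encodes a secreted olfactomedin glycoprotein, and Pcdh17, a protocadherin gene.
Farthest region, chr14:81605370-81605669: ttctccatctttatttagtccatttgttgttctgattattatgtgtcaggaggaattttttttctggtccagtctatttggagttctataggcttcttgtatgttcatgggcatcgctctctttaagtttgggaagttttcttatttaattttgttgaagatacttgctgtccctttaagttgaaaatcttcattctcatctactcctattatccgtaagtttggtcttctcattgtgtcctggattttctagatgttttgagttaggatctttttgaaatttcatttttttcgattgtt
Region ranked 3 by distance, chr14:81610830-81611069: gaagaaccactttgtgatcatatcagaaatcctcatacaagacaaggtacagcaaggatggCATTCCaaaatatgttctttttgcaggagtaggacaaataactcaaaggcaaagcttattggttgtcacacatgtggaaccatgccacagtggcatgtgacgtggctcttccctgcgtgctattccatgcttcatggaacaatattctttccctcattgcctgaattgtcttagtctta
The farthest of them, chr14:81605130-81605909, was 780 bp long and lay 1182 kb from Olfm4 on its left and 1178 kb from a U1 snRNA gene on its right, with Pcdh17 farther out on that side. The region between these, chr14:81606540-81609599, was 3060 bp long, and its central 32 bases occur at 12 places in the genome, whereas those of the regions printed here occur at 1 place.

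The third set shows the regions richest in G and C or in CG dinucleotides per 100 bp, with each CG in capitals.
Highest GC and most CG per 100 bp, chr12:20202750-20203019: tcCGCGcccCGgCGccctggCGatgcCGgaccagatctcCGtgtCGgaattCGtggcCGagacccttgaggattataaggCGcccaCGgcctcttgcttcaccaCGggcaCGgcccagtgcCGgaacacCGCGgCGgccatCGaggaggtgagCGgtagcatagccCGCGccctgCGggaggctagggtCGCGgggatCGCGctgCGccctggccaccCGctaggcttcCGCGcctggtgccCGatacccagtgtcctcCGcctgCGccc
Second in CG per 100 bp, chr13:6248715-6249014: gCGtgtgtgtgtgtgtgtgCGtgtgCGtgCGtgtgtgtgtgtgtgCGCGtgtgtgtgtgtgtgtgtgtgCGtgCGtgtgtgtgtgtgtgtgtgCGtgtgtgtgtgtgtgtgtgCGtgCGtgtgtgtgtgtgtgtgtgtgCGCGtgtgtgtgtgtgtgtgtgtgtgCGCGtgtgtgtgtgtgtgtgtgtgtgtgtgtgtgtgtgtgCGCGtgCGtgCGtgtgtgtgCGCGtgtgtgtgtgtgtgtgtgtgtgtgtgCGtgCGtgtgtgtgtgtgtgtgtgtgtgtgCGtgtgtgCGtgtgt
Second in GC, chr12:96092700-96092939: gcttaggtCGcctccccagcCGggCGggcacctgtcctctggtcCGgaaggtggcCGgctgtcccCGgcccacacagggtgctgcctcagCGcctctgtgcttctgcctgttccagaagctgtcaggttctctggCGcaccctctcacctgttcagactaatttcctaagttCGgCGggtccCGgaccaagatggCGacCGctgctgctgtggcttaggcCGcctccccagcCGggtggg
The first, 270 bp between Gm9257 and Gm10479, was 71.5% G and C and held 34 CG dinucleotides, and its central 32 bases occur at 5 places in mm9. The second, chr13:6248700-6249029 between Klf6 and Pitrm1, is a run of GT and CG repeats with 28 CG dinucleotides in its 330 bp. The third, in the desert between Gm9726 and Flrt2, was 66.7% G and C, and its central 32 bases occur at 2147 places. These 3 regions were thus repeats or had centres found at several places. The third region by CG per 100 bp, chr8:7892160-7892429, had a centre found at 1 place but also held GT and CG repeats, and the other CG-rich regions were not examined singly.

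Gene deserts were covered by BRG1 regions to nearly the same share as the rest of the autosomes. The deserts span 269 Mb, of which 202 Mb are sequenced in mm9, 8.43% of the 2394 Mb of sequenced autosomal bases. Regions counted here covered 52.7 Mb, or 26.1% of the sequenced desert bases. With the parts of regions that cross a desert edge included, the share was 26.5% (26.4766%), against 26.5% (26.5195%) in the rest of the autosomes. The same share was reached with fewer and longer regions. Deserts held 186 regions per Mb and the rest 207 per Mb, and the mean length was 1401 bp in deserts and 1283 bp elsewhere. The trait was not particular to deserts, since sequence 100 to 200 kb from a gene held 189 regions per Mb with a mean of 1379 bp.

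The 19 chromosomes were taken one by one to show how far these shares vary along the genome. The list has no replicates, so this spread is between chromosomes and not between hearts. On chromosomes, the covered share was 26.4% ± 0.912 (SD, n = 19) in deserts and 26.5% ± 0.485 (SD, n = 19) in the rest. Deserts were lower than the rest on 8 chromosomes and higher on 11, with a mean difference of -0.143 percentage points and an SD of 0.943. Without chromosome 11, left out after seeing the data, the mean was 0.0220 percentage points. The mean difference was smaller than the spread between chromosomes. Chromosome 11 stood apart, with 23.5% in its 2.95 Mb of desert against 26.6% in the rest, and the difference was widest in the other direction on chromosome 10, with 28.0% and 26.9%. In contrast to the covered share, the mean region length was higher in deserts on 19 of 19 chromosomes, although on chromosome 3 it was 1340 bp against 1339 bp. This held for the mean only. The median was 600 bp in deserts and 630 bp in the rest on chromosomes 3 and 9. It was 630 bp in both on chromosomes 6, 16 and 18, and higher in deserts on the others. Chromosome 3 held most desert regions (4332), followed by chromosome 1 (4180), and chromosome 4 held fewest (500). The number followed the amount of desert, which was 22.9 Mb on chromosome 3 and 2.73 Mb on chromosome 4.

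Coverage was also followed outwards from genes, to see whether it falls with distance. Inside genes 27.5% of sequenced bases lay in regions. The share was 25.9% within 5 kb of a gene, 24.9% at 5 to 20 kb, 25.7% at 20 to 50 kb, 26.4% at 50 to 100 kb and 26.1% at 100 to 200 kb. Inside the deserts it was 26.4% at 200 to 300 kb, 26.4% at 300 to 500 kb and 26.9% at 500 to 1000 kb. The share was lowest close to genes, at 5 to 20 kb, and from 20 kb outwards it lay between 25.7% and 28.7%. Beyond 1000 kb it was 28.7%, over only 0.895 Mb of sequence. The number of regions took another course, with 213 per Mb inside genes, 221 per Mb within 5 kb of a gene and 189 per Mb at 100 to 200 kb. From 200 to 1000 kb the number lay between 185 and 189 per Mb, and in the small band beyond 1000 kb it was 203 per Mb. Mean region length was larger farther out, from 1164 bp within 5 kb of a gene to 1430 bp at 500 to 1000 kb, and was 1403 bp beyond 1000 kb. G and C content, which moves with distance, went from 43.3% within 5 kb of a gene to 37.3% at 500 to 1000 kb, and its part in these lengths was not tested. Single chromosomes spread more widely in the desert bands, from 21.5% to 28.2% at 200 to 300 kb and from 23.6% to 34.5% on the 15 chromosomes with at least 500 kb of sequence at 500 to 1000 kb. Inside genes they spread from 26.3% to 28.2%. Desert bands hold less sequence per chromosome than genes do. The 34.5% was on chromosome 13, with 611059 bp in that band. Inside genes the least sequence was 28353207 bp, on chromosome 19. The part of the amount of sequence in these spreads was not tested.

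**Figure D1:**
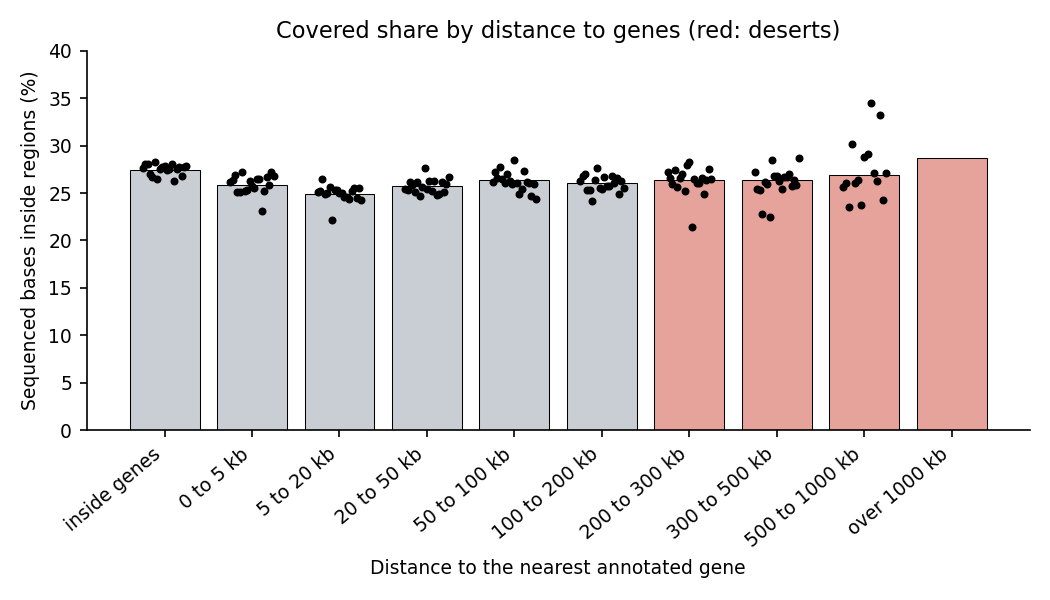
Share of sequenced autosomal bases inside BRG1 regions (%, bars, pooled over chromosomes) by distance to the nearest annotated gene, with 1 point for each chromosome that has at least 500 kb of sequence in the band; red bars are desert bands. The bars lie between 24.9% (5 to 20 kb) and 28.7% (over 1000 kb, 0.895 Mb in all). Points spread most in the desert bands, which hold less sequence than the other bands.

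Because deserts are poor in G and C, windows of 10 kb were compared within classes of G and C content. In all 3 kinds of window, windows under 36% G and C were the most covered, with 29.1% in deserts, 31.1% in windows wholly inside genes and 30.5% in other windows outside genes. From 38 to 40% G and C the shares were 24.7% in deserts, 27.9% in genes and 24.7% in the other windows. Desert windows lay below genic windows in each of the 6 classes, and on either side of the other windows outside genes. When genic and other windows were weighted to the G and C content of deserts, the shares were 26.5% in deserts, 26.8% outside genes elsewhere and 28.6% inside genes. With windows of 50 kb, a size chosen after seeing the data, they were 26.5%, 26.5% and 28.0%. In those windows deserts were above genes in the 2 classes from 42% G and C upwards. The spread between 10 kb windows of a class was wide, with SDs of 22.8 to 25.6 percentage points.

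Desert regions ranged from 210 to 53280 bp, with a median of 630 bp and quartiles of 300 and 1740 bp. All other autosomal regions had a median of 600 bp and quartiles of 300 and 1560 bp. Regions touching a gene had a median of 630 bp, like the desert regions, and the other regions outside genes one of 570 bp. Desert regions were longer than the others from the median upwards. Regions of at most 300 bp were 26.4% of desert regions and 27.8% of the others, and regions of at least 1 kb were 38.1% and 36.02%. Regions of at least 5 kb were 5.12% of desert regions (1926 regions) and 4.15% of the others, and they held 26.8% and 23.5% of the bases in these regions. Regions of at least 10 kb were 0.548% (206 regions) and 0.446%. Neighbouring regions also lay farther apart in deserts, with a median gap of 1920 bp against 1530 bp, and 24.6% of desert gaps against 28.2% of the others were at most 500 bp. At the 200 kb limit of the rule, the 2342 regions just inside, 200 to 210 kb from a gene, had a median length of 570 bp, and the 2486 just outside, at 190 to 200 kb, had one of 690 bp.

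**Figure D2:**
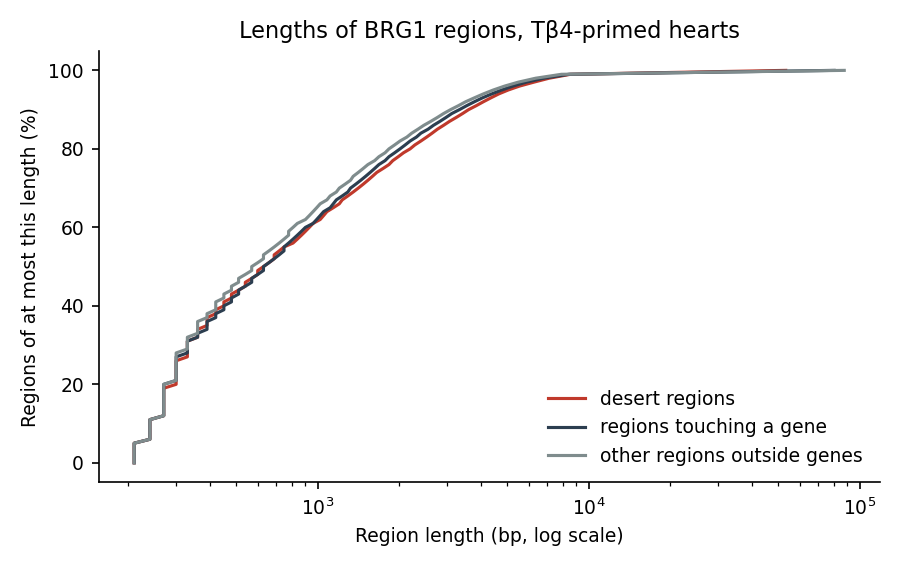
Cumulative length distribution of BRG1 regions (x, bp on a log scale; y, percentage of regions of at most that length, drawn through whole percentiles) for desert regions, regions touching a gene and other autosomal regions outside genes. The curves start together at 210 bp, with 26.4% of desert regions at most 300 bp, and the desert curve then runs to the right of that of other regions outside genes, with medians of 630 and 570 bp, while it parts from that of regions touching a gene mainly at longer lengths.

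The longest single desert region needs a qualification. It ran over chr17:62275950-62329229, 53280 bp between Nudt12 and Efna5, but most of it is unsequenced in mm9. In all, 11 desert regions include an unsequenced base. The longest regions with every base sequenced, a rule added for that reason, were chr7:84753060-84780779 (27720 bp), between Agbl1 and Ntrk3, the neurotrophin-3 receptor gene, and chr8:110754960-110777669 (22710 bp), between the proteasome subunit gene Psmd7 and Zfhx3, a homeobox gene. Further long regions were chr3:158912460-158932259 (19800 bp, Lrrc7 to Depdc1a) and chr6:104093070-104112539 (19470 bp), between the neural adhesion genes Chl1 and Cntn6. A region of 22260 bp lay between Sall3 and Galr1.

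Desert regions were poorer in G and C than the desert bases around them. Pooled over bases, G and C made up 37.7% of desert regions, 38.4% of desert bases outside regions and 41.9% of all other autosomal regions. CG dinucleotides numbered 4.92 per kb in desert regions, 5.63 per kb in desert bases outside regions and 8.36 per kb in the other regions, and their number over that expected from base composition was 0.139, 0.152 and 0.191. CG-dense sequence, typical of the CpG islands at many promoters, was rare. Only 51 desert regions (0.136%) held at least 5 CG per 100 bp, against 3580 (0.788%) of the others. Regions with 0 CG made up 12.8% of desert regions and 8.15% of the others. Of single desert regions, the 5th percentile was 29.3% G and C, the median 37.7% and the highest 71.5%, and the median of the others was 42.1%. The shortest desert regions, under 300 bp, were 39.1% G and C, and those from 600 bp upwards between 37.4% and 37.7%.

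Motif letters were counted in the central 300 bases of the 30414 desert regions of at least 300 bp, of the 360810 other regions of that size and in 458437 tiles of 300 bases of desert that touch no region. TTGCNNAA, the C/EBP letters, was present in 15.9% of desert regions, 13.3% of other regions and 15.9% of desert tiles. AGATAA, the letters read by GATA factors, was present in 23.5%, 19.02% and 22.4%, and TAAAAATA, read by MEF2 factors, in 7.95%, 6.07% and 7.10%. For these 3 motifs, desert regions stood nearer to desert sequence outside regions than to regions elsewhere. The CTCF core AGGGGGC was in 1.34%, 2.51% and 1.29%. Within windows under 38% G and C it was in 0.628%, 0.684% and 0.573%, and from 38 to 42% in 1.56%, 1.61% and 1.20%. Above 42% it was in 2.60%, 3.91% and 2.58%, so there desert regions stayed below other regions. TGANTCA, the AP-1 site, was at 8.64%, 8.79% and 8.82%, and TEAD's GGAATG was at 16.5%, 15.6% and 16.1%. The NFI letters TTGGCA were present in 13.4%, 14.2% and 14.0%. Of the 7 motifs, AGATAA differed most between desert regions and desert tiles in percentage points, and TAAAAATA most as a ratio. Mean G and C content of the windows was 37.7%, 42.1% and 38.4%. Among windows under 38% G and C, AGATAA was in 28.8% of desert regions, 27.4% of other regions and 27.8% of desert tiles, and TAAAAATA in 12.3%, 12.2% and 11.5%. In windows of 38 to 42% G and C, TAAAAATA was in 4.43% of desert regions, 6.17% of other regions and 4.17% of desert tiles, and above 42% in 2.08%, 2.53% and 1.97%. A match to such letters is a description of sequence and no evidence of binding.

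The authors kept reads with at most 2 alignments, so repeats could limit where regions were called. The 32 bases at the centre of each region were therefore looked up on both strands of mm9, a measure chosen after seeing the data. They occur more than 2 times for 17.2% of 37615 desert regions, 17.4% of other regions outside genes, 9.14% of regions touching a gene and 18.8% of desert tiles without a region. Desert regions resembled other regions outside genes in this measure rather than regions at genes. Multi-copy centres were most frequent in short regions, with 24.8% in desert regions under 300 bp and 28.99% in those from 300 to under 600 bp. They made up 12.3% from 600 to under 1200 bp, 7.01% from there to under 2400 bp, 4.73% from there to under 4800 bp and 3.67% from 4800 bp upwards. Other regions outside genes ran from 22.9% and 26.8% in the same 2 shortest classes to 4.32% in the longest, and regions touching a gene from 12.0% and 13.9% to 3.51%. Centres found more than 100 times were at 9.83% in desert regions and 12.2% in desert tiles. The part of repeats and of mapping in the number and length of desert regions was not tested.

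Desert regions were spread over almost all deserts. Of 673 deserts, 21 have no sequenced base, and of the other 652, 631 held at least 1 region counted by the rule. The 21 sequenced deserts without a counted region were small, the longest with 15993 bp. Regions that cross a desert edge covered part or all of some of these, among them 15.8% of the longest, while others were not covered at all. Among these 631 deserts, the median was 39 regions and the fullest held 354. There were 122 deserts with at least 100 regions, and these held 20124 regions (53.5%), whereas 106 deserts held 1 to 9. The longest desert of all, chr7:39513213-46311993 between Gm5591 and Gm16387, 6799 kb, is an unsequenced gap of the assembly and held 0 regions. The 19 deserts open to a chromosome end, with a gene on 1 side only, held 111 regions in all.

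The gene nearest to a desert was often no protein-coding gene. Over both sides of the 652 deserts, the flanking gene was protein-coding 575 times, a small RNA gene (such as U6 snRNA, SNORA17 or 7SK) 512 times, another non-coding gene or a pseudogene 213 times and a chromosome end 4 times. Deserts with protein-coding genes on each side were covered to 27.2% (127 deserts) and those between 2 small RNA genes also to 27.2% (99 deserts). Those between 2 genes of the remaining types were covered to 23.7% (34 deserts, 6.59 Mb). For this reason deserts are named below by the nearest protein-coding gene on each side, which can lie well beyond the desert.

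The fullest desert, with 354 regions, was chr10:14904606-16636609, between Nmbr, which encodes the neuromedin B receptor, and Cited2, a transcriptional co-regulator needed for normal heart development. Its nearest annotated genes were small RNA genes, SNORA17 and U6, and Nmbr and Cited2 lay 414 kb and 806 kb from its ends. Regions covered 28.5% of it. The second, with 341 regions and 25.6% covered, was chr1:143411042-145245926, between the potassium channel gene Kcnt2 and Cdc73, a subunit of the PAF1 complex of RNA polymerase II. The third, with 337 regions and 25.7% covered, was chr3:41763312-43529490, between D3Ertd751e and Pcdh10, a protocadherin gene. Then came the Olfm4 to Pcdh17 desert, chr14:80622668-82584172, the largest in sequenced bases at 1962 kb, with 312 regions and 26.1% covered. Next came chr3:70811214-72341752, with 303 regions and 25.9% covered, between Otol1, an inner-ear collagen gene, and Sis, the gene of intestinal sucrase-isomaltase. All 5 were covered to between 25.6% and 28.5%, and the largest of them was not the fullest.

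The other five of the 10 fullest deserts held 253 to 284 regions. The Celf4 to Pik3c3 desert (an RNA-binding splicing factor and a lipid kinase of autophagy) held 284 regions with 27.1% covered. The desert between Cdh2, N-cadherin of the intercalated disc, and Dsc3, a desmocollin, held 259 with 28.7%. Gm9934 to Gm9966, a pair of predicted genes, held 261 with 26.1%. The desert from Edem1, which acts in protein degradation at the endoplasmic reticulum, to the glutamate receptor gene Grm7 held 254 with 27.8%. The desert from Unc5d, a netrin receptor gene, to the phosphatase gene Dusp26 held 253 with 26.7%. Across the 10 fullest deserts the covered share thus stayed between 25.6% and 28.7%, and sequenced size between 1207 and 1962 kb. None of them was among the 10 highest deserts by regions per Mb or by covered share.

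**Figure D3:**
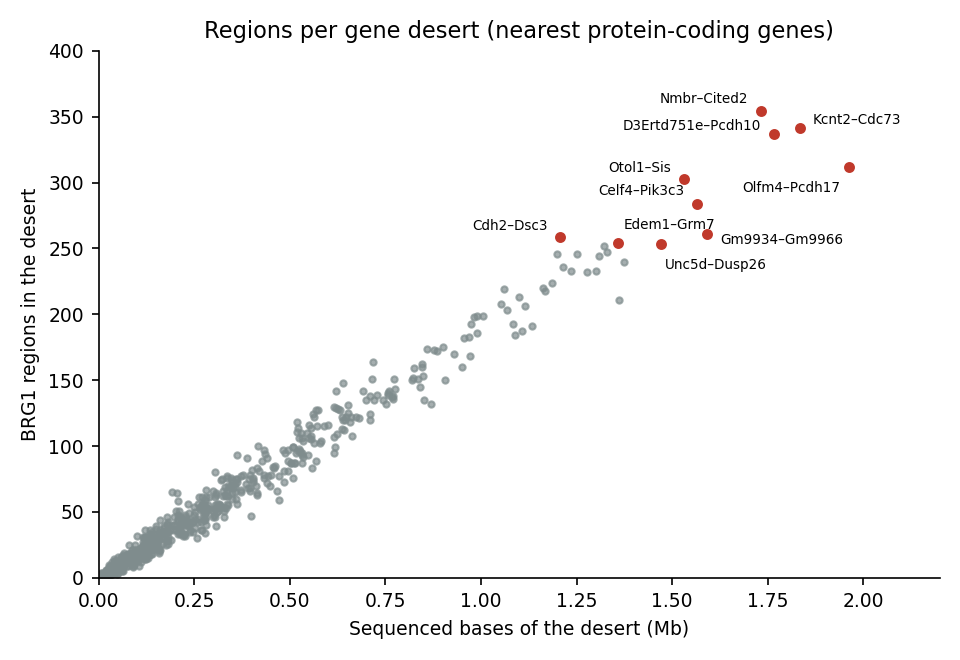
Number of BRG1 regions (y) against sequenced bases (x, Mb) for each of 652 gene deserts, with the 10 fullest in red, named by the nearest protein-coding gene on each side. The points form 1 band that climbs with size, from small deserts near 0 to 354 regions at 1732 kb.

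To compare deserts of different size, the 324 deserts with at least 200 kb of sequence were used, which held 32601 regions (86.7%). Their covered share had a lowest value of 12.7%, a median of 26.1% and a highest value of 46.3%, with quartiles of 23.2% and 29.1% and a mean of 26.4% ± 4.85 (SD, n = 324 deserts). Their density had a lowest value of 117 regions per Mb, a median of 186 and a highest value of 313. The spread narrowed with desert size. The SD of the covered share was 6.05 percentage points in the 150 deserts of 200 to 400 kb, 3.86 in the 116 of 400 to 800 kb and 2.66 in the 58 of more than 800 kb, while the mean stayed at 26.1%, 26.7% and 26.7%. Deserts at either extreme were thus mostly small ones. Across the 324 deserts, which share 1 list and 1 depth, covered share and density had a Pearson r of 0.37 (Spearman 0.357), and covered share and G and C content one of 0.14 (Spearman 0.0398). These are descriptions across deserts and not across samples.

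The highest covered share, 46.3%, was in chr10:124966020-125203274, between Slc16a7, a monocarboxylate transporter gene, and Lrig3, a leucine-rich repeat receptor gene. It held 41 regions, 173 per Mb, which is below the median density, and 8 regions of at least 5 kb made up 72.7% of the bases in these 41 regions. The second, 42.3%, was chr13:72971645-73197944, between the Iroquois homeobox genes Irx2 and Irx4. Irx4 is known for its expression in the ventricles of the heart. This desert held 48 regions, 6 of them at least 5 kb long with 45.6% of the bases in these regions. The next were Cmpk2 to Gm9866 on chromosome 12 (41.6%), Gm8226 to Gm11114 on chromosome 9 (40.2%) and chr10:17036707-17243033 beside Cited2 (39.7%). The Cited2 desert reached its share in another way, with 58 regions, 281 per Mb, and 1 region of at least 5 kb that made up 6.60% of the bases in these regions. In the other four of these deserts, regions of at least 5 kb made up 40.6% to 72.7% of the bases in regions.

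The desert with most regions per Mb was chr13:44420549-44624842, between Cd83, an immunoglobulin-family gene of antigen-presenting cells, and Jarid2, a partner of the Polycomb complex PRC2 with a known part in heart development. It held 64 regions, or 313 per Mb, with 34.9% covered and a median gap of 870 bp. The Cited2 desert followed with 281 per Mb and a median gap of 630 bp, and then the desert between Gata6, a cardiac transcription factor gene, and the DNA repair gene Rbbp8, with 262 per Mb. The Gata6 desert was dense in short regions: its 80 regions had a median of 480 bp and covered 24.8%, below the median of all deserts. 3110039M20Rik to Prkd1 (a protein kinase D gene) held 93 regions in 363 kb, and Col11a1 (a fibrillar collagen gene) to Olfm3 had 251 per Mb.

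At the other end, coverage was lowest, 12.7%, in chr13:84745078-84964699 between the predicted genes Gm17618 and Gm4066. Its 32 regions had a median of 375 bp, 0 of them reached 5 kb, and the median gap was 4590 bp. The next were the deserts between Adcy8, an adenylyl cyclase gene, and Efr3a (14.2%), Fat3, an atypical cadherin gene, and Gm5611 (14.6%), Auts2 and Gatsl2 (15.7%), and Slc8a1, the cardiac sodium-calcium exchanger, and Pkdcc (15.9%). In 4 of these 5 deserts, all except Adcy8 to Efr3a, 0 regions were at least 5 kb long. The lowest density, 117 per Mb, was in the desert between Zfp516 and Tshz1, a zinc-finger homeobox gene, with 30 regions. The next lowest were in Inhba (the activin A subunit gene) to 5033411D12Rik with 118 per Mb, Adcy8 to Efr3a with 122 per Mb, Psmd7 to Zfhx3 with 125 per Mb, and Ccdc50 to Fgf12 with 127 per Mb. Of these 5 sparse deserts, 3 lay below the median covered share, whereas Inhba to 5033411D12Rik was just above it and Psmd7 to Zfhx3 well above. The last was covered to 31.8% by 59 regions, among them the one of 22710 bp named above, and 7 regions of at least 5 kb made up 59.5% of the bases in its regions.

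**Figure D4:**
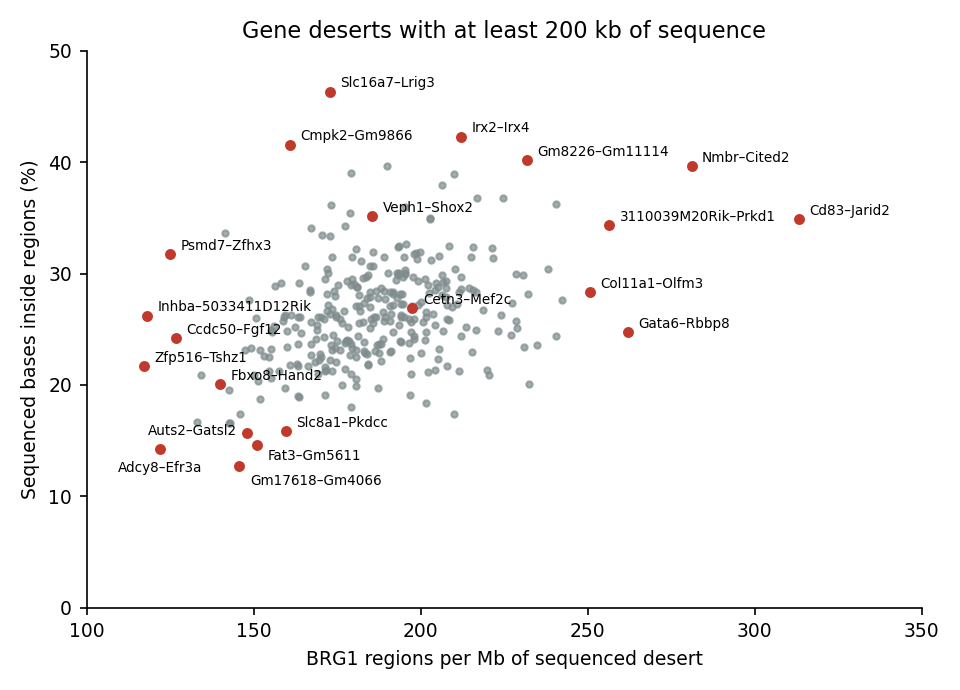
Share of sequenced bases inside BRG1 regions (y, %) against regions per Mb (x, axis starting at 100) for the 324 deserts with at least 200 kb of sequence; red points are the deserts at the extremes of either measure and 3 next to Hand2, Shox2 and Mef2c. The quartiles of the covered share are 23.2% and 29.1%, and Slc16a7 to Lrig3 (46.3%, 173 per Mb) and Gata6 to Rbbp8 (24.8%, 262 per Mb) show that the measures can part.

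**Figure D5:**
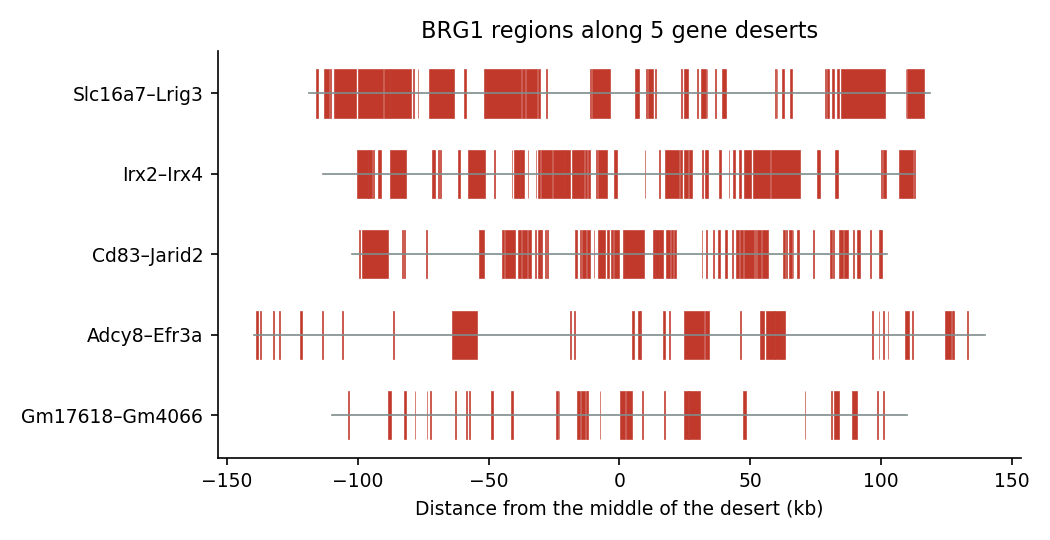
BRG1 regions (red boxes, whose outlines add slightly to their width) along 5 deserts (grey lines), by distance from the middle of each desert in kb, from deserts of high coverage or density at the top to those of low coverage at the bottom. Slc16a7 to Lrig3 holds 41 regions, 8 of them wide blocks of at least 5 kb. Cd83 to Jarid2 holds 64 closely spaced regions, and Gm17618 to Gm4066 holds 32 mostly narrow regions.

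Sequenced stretches without a region were also measured. In the deserts 659 such stretches of at least 20 kb held no region, and 3 were at least 50 kb long. The longest was chr13:16445430-16502249, 56820 bp in the Inhba to 5033411D12Rik desert, with a G and C content of 38.8%. The others were chr16:6348240-6402269 (54030 bp), between Fam86 and Rbfox1, a splicing factor gene, and chr11:13117620-13167959 (50340 bp), between Gm17624 and Vstm2a. The Inhba desert thus combined the longest of these stretches with 26.2% covered, close to the median, and its 5 regions of at least 5 kb made up 46.9% of the bases in its regions.

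Deserts next to genes that control development were described from a list of 84 gene symbols, chosen for roles in heart and organ formation. Of these symbols, 83 matched a gene annotated as protein-coding. Of the genes matched, 33 were the nearest protein-coding gene of a desert with at least 1 counted region. Their 45 deserts held 2251 regions over 11.9 Mb. Pooled, 27.8% of their bases were covered, against 26.4% in the other deserts, with 188 and 186 regions per Mb. The 21 of them with at least 200 kb of sequence had a median of 27.1% and the 303 other deserts of that size one of 26.1%. Of these 21, 12 lay above the median covered share of all 324 deserts and 9 above the median density. The ranges overlapped widely, since these 21 deserts ran from 20.1% to 42.3%.

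Among the cardiac genes of that list, the Irx2 to Irx4 desert was the most covered of that size, at 42.3%. Beside Irx1 of the same cluster, the desert towards 8030423J24Rik held 70 regions with 25.3% covered, and the desert of 91.0 kb towards Rpl9-ps4 held 15 regions with 23.6% covered. Veph1 to Shox2, beside a homeobox gene needed for the sinus node, held 51 regions with 35.2% covered. Cetn3 to Mef2c, beside the gene of a muscle and heart transcription factor, held 208 regions over 1053 kb with 26.9% covered. Fbxo8 to Hand2, beside the gene of a basic helix-loop-helix factor of the right ventricle, had the lowest share of the 21, 20.1%, with 46 regions. The small desert beside Tbx18, a gene of epicardial and sinus node progenitors, held 7 regions in 47.3 kb with 9.33% covered, and the desert of 143 kb between Fgf10 and Nnt held 30 regions with 29.9% covered. Deserts of neighbouring cardiac genes therefore lay at both ends of the range.

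Among the other listed genes, the desert of 582 kb between Nox3 and Arid1b, itself a SWI/SNF subunit gene, held 104 regions with 35.4% covered, 10 of them at least 5 kb long. The desert between Sox2 and Atp11b held 131 regions in 653 kb with 25.6% covered, and that next to Bmp2 held 87 regions in 513 kb with 22.3%. The desert beside Sox6, 134 kb long, was dense, with 268 regions per Mb and 35.8% covered. Whether any of these regions acts on the gene named beside it was not tested, and the gene nearest to a desert need not be a target.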

How the data were processed

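BRG1 ChIP-seq was done by the authors on duplicate PBS-primed and Tβ4-primed, injured hearts with inputs. Groups were taken from the labels. Per the submitters' processing notes, reads were mapped with Bowtie 1.0.0 to mm9 and regions called with MACS2 2.0.10. The deposited list gives start and end positions in bp for Tβ4-primed hearts, with no count or score. The study's methods name the MACS2 function bdgcomp, which scores ChIP against control, but the list is named as files from bdgdiff are, which compares conditions, so which call was used is unsure. How the duplicates were combined is not given in the sources used here. Lengths are multiples of 30 bp, so ends are known to that step.

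Genes were those of the GENCODE annotation of mm9 on 19 autosomes (34653 genes). Positions are counted from 1. Distances, covered shares and sequence features were computed with Python 3.11.15, numpy 2.4.6 and pandas 2.3.3. Distances and membership were tested on simulated data against bedtools 2.31.1. Covered shares are over sequenced bases. The members, gene lists and motifs were chosen with earlier results of these data known. Named were the 10 deserts with most regions. Among deserts with at least 200 kb of sequence, the 5 at each end of density and of covered share were named. Also named were the longest desert, the one farthest from genes and the deserts next to developmental regulators from the 84 listed symbols. Single regions were named at the extremes of length, distance and composition. Some named items are not reported here. The longest regions of extreme deserts, regions with every base sequenced and the copies of 32 bases were chosen after seeing the data. Repeat-masked shares could not be computed, since the genome file marks 0 bases as repeats, and no score threshold could be applied. No interval is given for shares, because regions are not independent draws.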

Additional observations from a re-analysis of the deposited data

How the results depend on the processing

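The list allows no test, so the values below show only how far the counts and shares move with the definitions. The number of desert regions followed the definition of a desert. It was 76059 with a distance of 100 kb, 6556 with 500 kb, 83146 when only protein-coding genes counted, 62154 when small RNA genes did not count (an alternative chosen after seeing the data), and 19594 for regions of at least 600 bp. It was 37505 when a gene was required on each side, 28377 after joining regions within 500 bp and 37977 when 1 bp in the desert was enough. The covered share of 26.1% moved little with the choice of deserts: 25.9% with 100 kb, 26.6% with 500 kb, 26.2% with protein-coding genes alone, 26.1% (26.1083%) with a gene on each side, 26.4% without small RNA genes, 26.1% (26.0843%) without regions that hold unsequenced bases, 26.5% with regions that enter by 1 bp, and 26.0% to 26.2% when each chromosome was left out in turn. It was 27.2% after joining, 23.1% for regions of at least 600 bp and 19.6% when unsequenced bases were counted. The median length of 630 bp became 870 bp after joining and 1650 bp for regions of at least 600 bp, and stayed at 630 bp under the other definitions of a desert that were run. At the G and C content of deserts, windows of 50 kb in place of 10 kb turned the small difference between deserts and other windows outside genes, from 26.5% and 26.8% to 26.5% (26.51%) and 26.5% (26.4875%). No paired analysis was possible because the list does not separate the duplicates. Depth, enrichment and the spread between hearts cannot be read from it, and small deserts vary most.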
